A study of Mus musculus with 12 samples.

Results

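The immediate early and heat-shock genes described here are Fos, Fosb, Jun, Junb, Egr1, Ier2, Npas4, Arc, Hspa1a and Hspa1b, chosen by name. All 10 were found among the 24411 genes of the deposited tables, and 9 were among the 14311 genes tested after a filter on low counts. Fosb did not pass that filter. Each RNA sample came from the cerebral cortex of 1 mouse embryo, dissected in cold PBS and flash frozen, in 4 groups of 3 embryos. The groups were wild type (WT) at E12.5, HARE5Hs/Hs at E12.5, WT at E14.5 and HARE5Hs/Hs at E14.5. HARE5Hs/Hs embryos are knock-ins that carry the human version of HARE5, an enhancer of the Wnt receptor gene Fzd8, on both alleles. WT embryos carry the mouse version, and no treatment is labelled in any group. Strain, litter and sex are not labelled, so each p-value measures the spread between single embryos, whatever its source.

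Immediate early genes are switched on within minutes of a stimulus, without new protein synthesis, through factors such as SRF and CREB that already sit on their promoters. Fos, Fosb, Jun and Junb encode subunits of the AP-1 transcription factor, Egr1 a zinc finger transcription factor and Ier2 a nuclear regulator. Npas4 encodes a transcription factor induced by neuronal activity, and Arc a synaptic protein of active neurons. Hspa1a and Hspa1b encode the stress-inducible HSP70 chaperones, switched on by the heat-shock factor HSF1. The whole group is also known to respond to handling of tissue, which is why its levels in each embryo are of interest in dissected material.

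The promoters of Fos and of the pair Hspa1a and Hspa1b are shown because the last 2 are near-copies and because their levels differ sharply in 1 embryo described below. The RefSeq promoter table used, of build GRCm38.p6, matched 7 of the 10 genes, and the 250 bases upstream of the start of these 3 are written 5′ to 3′ in the direction of transcription. The Fos promoter lies at chr12:85473640-85473889 on the plus strand, and its capitals mark TGACG (the core of a CREB site) at 129 and 66 bases upstream of the start and TATAAA at 33. The Hspa1a promoter lies at chr17:34972157-34972406 and the Hspa1b promoter at chr17:34959239-34959488, both on the minus strand. Their capitals mark the heat-shock element GAANNTTC at 104 bases upstream and the 3 bases that differ between the copies.
Fos: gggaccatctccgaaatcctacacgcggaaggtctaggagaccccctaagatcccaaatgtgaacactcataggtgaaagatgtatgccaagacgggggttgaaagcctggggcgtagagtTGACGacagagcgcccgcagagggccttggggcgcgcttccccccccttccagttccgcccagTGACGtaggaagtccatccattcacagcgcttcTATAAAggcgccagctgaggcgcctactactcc
Hspa1a: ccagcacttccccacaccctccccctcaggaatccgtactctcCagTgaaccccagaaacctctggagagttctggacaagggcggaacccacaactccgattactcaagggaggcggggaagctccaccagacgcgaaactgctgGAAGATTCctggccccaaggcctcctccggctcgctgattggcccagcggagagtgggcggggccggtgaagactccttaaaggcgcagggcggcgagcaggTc
Hspa1b: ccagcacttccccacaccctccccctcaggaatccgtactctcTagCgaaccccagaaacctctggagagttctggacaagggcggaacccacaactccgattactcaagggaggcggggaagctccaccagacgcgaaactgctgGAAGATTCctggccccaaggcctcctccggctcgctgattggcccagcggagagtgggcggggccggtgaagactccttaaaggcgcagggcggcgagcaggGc
Counted from 1 at the 5′ end, Hspa1b differs from Hspa1a by C44T, T47C and T249G over the 250 bases. Searched on both strands in 32851 promoters of the same length, GAANNTTC occurred in 6.69%, TGACG in 17.8% and TATAAA in 12.4%. These motifs do not overlap one another in the printed promoters. Jun also holds GAANNTTC at 128 bases upstream, and TGACG occurs at 60 in Fosb, at 106 in Junb and at 179 and 169 in Npas4. A match of letters is a description and not a bound site.

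Hspa1a and Hspa1b also share most of their transcript. Their coding parts of 1923 and 1926 bases align with 8 differing bases and 3 gap bases, an identity of 99.4%. Of all stretches of 31 bases, 63.8% of the Hspa1a transcript occur in Hspa1b and 67.5% of the Hspa1b transcript occur in Hspa1a, while their 3′ untranslated ends of 813 and 646 bases share none. How the authors' counting split reads between the copies is therefore uncertain, and the value for both copies summed is given beside the age call of Hspa1b.

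Libraries held 11593202 to 17670103 estimated counts. Cortical genes were present in every group, with 10 of 10 markers of cortical progenitors and neurons above 0. The smallest library, E14.5 HARE5Hs/Hs replicate 3, stood apart, with 14537 detected genes and little choroid plexus or meninges RNA. Its choroid plexus and cortical hem markers summed to 5.28 CPM (read counts relative to TMM-scaled library size) against 445 and 697 CPM in replicates 1 and 2. Its meninges markers summed to 11.1 CPM against 438 and 155 CPM. Its neuron markers summed to 4934 CPM, the highest of the 12, against 3447 and 4728 CPM. Age calls and list values in HARE5Hs/Hs that change without this library are given both ways. E12.5 HARE5Hs/Hs replicate 1 had the most neuron marker RNA at E12.5, 2199 CPM against 1271 to 1412 CPM in the other 5. In bulk tissue, fewer cells of a type and less RNA per cell cannot be told apart.

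Jun and Ier2 were the 2 genes of the group above the median tested gene in E12.5 WT cortex. Levels between genes are compared in the authors' FPKM, which is per length. Jun stood at 19.5 ± 2.13 FPKM and Ier2 at 19.2 ± 1.46 FPKM (SD, n = 3), 2 neighbours closer than their spread, against a median of 9.98 FPKM over tested genes. Egr1 followed at 1.93 ± 0.900 FPKM, Arc at 1.08 ± 0.174 FPKM and Junb at 0.729 ± 0.142 FPKM. Egr1 and Arc differed by less than their spread, and Arc and Junb by more. Hspa1b stood at 0.349 ± 0.0587 FPKM, Fos at 0.222 ± 0.105 FPKM, Npas4 at 0.186 ± 0.173 FPKM, Hspa1a at 0.140 ± 0.132 FPKM and Fosb at 0.0109 ± 0.0188 FPKM. Embryos overlapped between all neighbours in this last stretch. Fos lay above 3.05% of tested genes and Hspa1a above 1.64%. For scale, the constitutive HSP70 gene Hspa8 stood at 1476 ± 77.7 FPKM in the same embryos.

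By E14.5 the order had changed in the middle of the range. In E14.5 WT, Jun stood at 27.1 ± 2.65 FPKM, Ier2 at 13.1 ± 0.720 FPKM, Arc at 2.53 ± 0.266 FPKM and Egr1 at 0.891 ± 0.234 FPKM, so that Arc stood above Egr1. Junb followed at 0.520 ± 0.144 FPKM, and Npas4, Hspa1b, Fos, Hspa1a and Fosb lay between 0.0552 and 0.306 FPKM with embryos that overlapped between neighbours. In E14.5 HARE5Hs/Hs the order was the same for Jun (28.2 ± 0.900 FPKM), Ier2 (11.9 ± 1.49 FPKM) and Arc (2.37 ± 0.417 FPKM), but Hspa1b came to 10.6 ± 17.8 FPKM. Without replicate 3 its mean was 0.276 FPKM over the other 2 embryos. Junb (1.30 ± 0.519 FPKM) also stood above Egr1 (1.02 ± 0.356 FPKM) there, the reverse of WT, with embryos that overlapped.

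**Figure D1:**
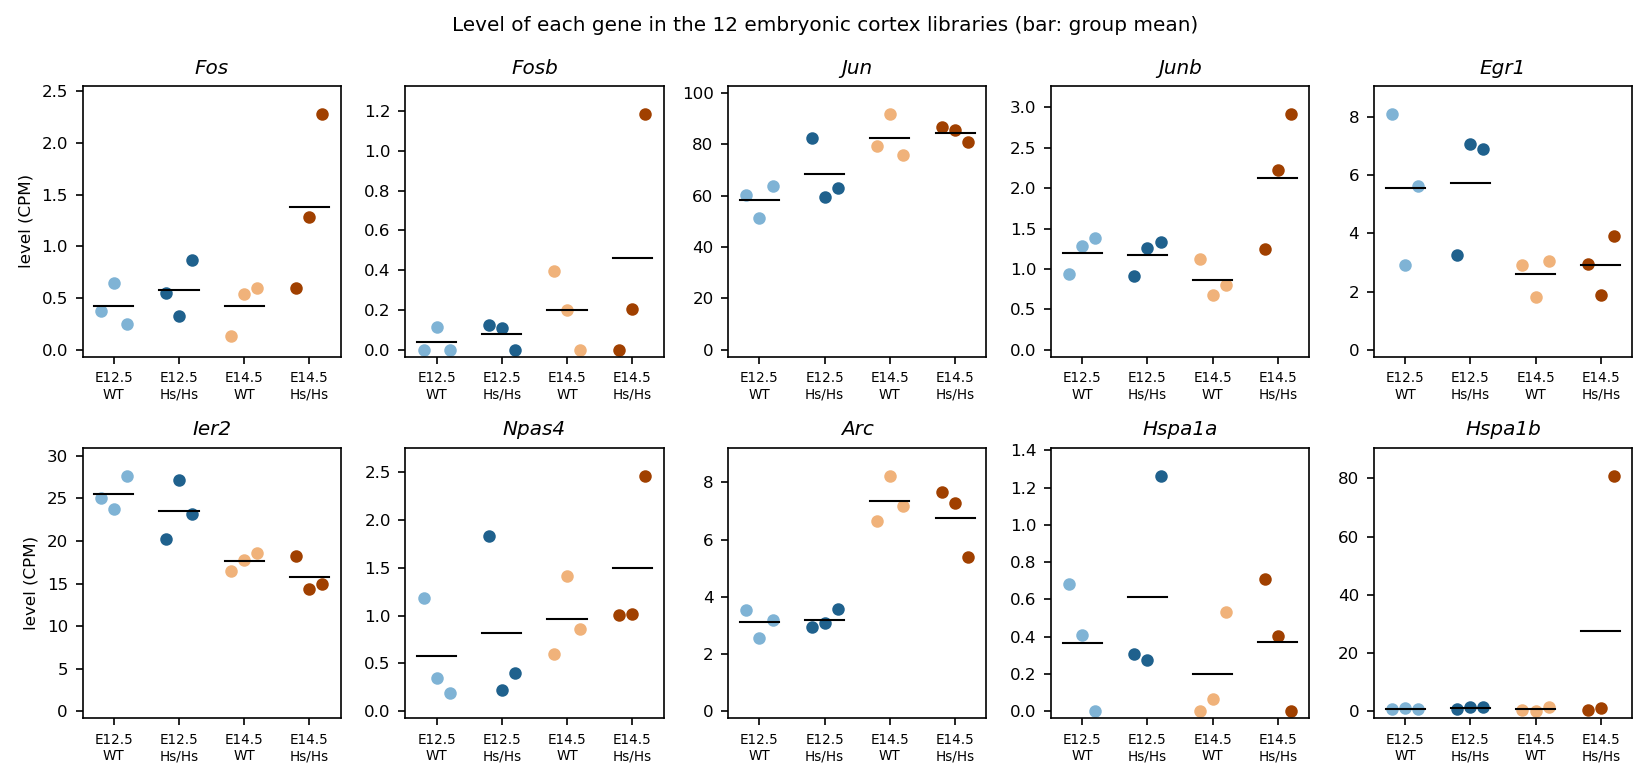
Level of each gene in CPM (vertical axes, linear and separate for each gene) in the 12 libraries, grouped by age and genotype (horizontal axis, Hs/Hs standing for HARE5Hs/Hs), with a dot per embryo and a bar at the group mean. Jun and Arc stand higher and Ier2 lower at E14.5, and Hspa1b is high in 1 embryo, at 80.9 CPM.

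Between E12.5 and E14.5, Arc and Jun rose and Ier2 fell in WT cortex, and Arc rose and Ier2 fell in HARE5Hs/Hs. Hspa1b was also called in HARE5Hs/Hs, through 1 embryo. Changes are log2 fold changes from the quasi-likelihood fit of edgeR, and "edgeR FDR" is the p-value adjusted over the 14311 genes by the Benjamini-Hochberg method. A gene was called, and is said to have risen or fallen, where this value was under 0.05. In WT 3 of 9 tested genes were called (2 higher, 1 lower), beside 35.2% of all tested genes, of which 20% were higher and 15.2% lower, so the members' share was near the background. In HARE5Hs/Hs 3 of 9 were called (2 higher, 1 lower), beside 45.7% of all, with 23.7% higher and 22% lower. Libraries of the 2 ages did not overlap for 3 of 9 genes in WT (2 higher, 1 lower), beside 49.1% of all tested genes (26.1% higher, 22.9% lower). In HARE5Hs/Hs they did not overlap for Arc and Ier2, beside 58.5% of all (28.9% higher, 29.6% lower). The median log2 fold change of the 9 was −0.41 in WT and 0.85 in HARE5Hs/Hs, against −0.01 and −0.03 over all tested genes. Without E14.5 HARE5Hs/Hs replicate 3 the HARE5Hs/Hs median of the 9 was 0.32, with Arc and Ier2 called, beside 35.6% of the 14531 genes then tested.

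Among the AP-1 genes, Jun, the most abundant partner, stood at 60.4, 51.3 and 63.6 CPM in the 3 E12.5 WT embryos and at 79.4, 91.6 and 75.7 CPM in E14.5 WT. Every E14.5 embryo was above every E12.5 embryo. Jun rose in WT by a log2 fold change of 0.49 (SE 0.13, edgeR FDR = 0.00989). In HARE5Hs/Hs it stood at 82.6, 59.5 and 62.8 CPM at E12.5 and at 86.5, 85.7 and 80.8 CPM at E14.5, so that E12.5 replicate 1 overlapped the older embryos. The change of 0.31 did not pass there (SE 0.13, edgeR FDR = 0.0632), while without E12.5 HARE5Hs/Hs replicate 1 it was 0.48 (edgeR FDR = 0.00476). That embryo is the one with the most neuron marker RNA at E12.5. Its markers of the ventral telencephalon also summed highest at that age, to 178 CPM against 6.78 to 86.5 CPM. The part of either in its Jun level was not tested. The difference in age change between genotypes was −0.19 (SE 0.18, edgeR FDR = 0.925).

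Fos itself held few counts. It held 6, 11 and 4 counts in E12.5 WT, 9, 6 and 13 in E12.5 HARE5Hs/Hs, 2, 8 and 9 in E14.5 WT and 10, 19 and 25 in E14.5 HARE5Hs/Hs. The 2 highest embryos were both of E14.5 HARE5Hs/Hs, and the ages overlapped in each genotype. The change with age was −0.00 in WT (SE 0.73, edgeR FDR = 0.998) and 1.23 in HARE5Hs/Hs (SE 0.69, edgeR FDR = 0.161). Without E14.5 HARE5Hs/Hs replicate 3 the latter was 0.70 (edgeR FDR = 0.490). Junb, an AP-1 partner that can restrain Jun, stood at 0.934, 1.28 and 1.38 CPM in E12.5 WT embryos, at 1.13, 0.675 and 0.797 CPM in E14.5 WT, at 0.917, 1.26 and 1.33 CPM in E12.5 knock-in embryos, and at 1.25, 2.23 and 2.92 CPM in E14.5 knock-in embryos. All these groups overlapped between ages, and Junb did not pass in WT (−0.47, SE 0.45, edgeR FDR = 0.449) or HARE5Hs/Hs (0.85, SE 0.44, edgeR FDR = 0.131).

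Fosb, the other Fos family gene, was barely detected. It held 0, 2 and 0 counts in E12.5 WT, 2, 2 and 0 in E12.5 HARE5Hs/Hs, 6, 3 and 0 in E14.5 WT and 0, 3 and 13 in E14.5 HARE5Hs/Hs. Each group had at least 1 embryo with no count. Summed over WT embryos, the younger embryos held 2 counts and the older 9, which gave a ratio of 4.92 (95% counting interval 1.02 to 46.8). This interval, like others from counts, covers counting error only and leaves out the spread between embryos.

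Ier2 fell with age in both genotypes. It stood at 25.1, 23.8 and 27.7 CPM in E12.5 WT embryos, and at 16.5, 17.7 and 18.6 CPM in E14.5 WT. In HARE5Hs/Hs it stood at 20.2, 27.1 and 23.1 CPM at E12.5 and at 18.2, 14.3 and 14.9 CPM at E14.5. No E14.5 embryo reached an E12.5 embryo of its genotype. Ier2 changed by −0.53 in WT (SE 0.14, edgeR FDR = 0.0108) and by −0.57 in HARE5Hs/Hs (SE 0.14, edgeR FDR = 0.00562). Without E12.5 WT replicate 3 the WT value was −0.46 (edgeR FDR = 0.0502). Without that embryo Ier2 was not called in WT.

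Egr1, which carries SRF sites in its known promoter, was lower on average at E14.5 but did not pass. It stood at 8.10, 2.92 and 5.65 CPM in E12.5 WT embryos, at 2.92, 1.82 and 3.05 CPM in E14.5 WT, at 3.24, 7.08 and 6.92 CPM in E12.5 knock-in embryos, and at 2.97, 1.89 and 3.92 CPM in E14.5 knock-in embryos. One E12.5 embryo of each genotype lay among the older ones. The changes were −1.09 in WT (SE 0.43, edgeR FDR = 0.0681) and −0.98 in HARE5Hs/Hs (SE 0.43, edgeR FDR = 0.0812). DESeq2 called the WT value (−1.12, adjusted p = 0.0404), and so does the authors' deposited table (−1.11, adjusted p = 0.0310). Without the overlapping embryos, E12.5 WT replicate 2 or E12.5 HARE5Hs/Hs replicate 1, edgeR also called Egr1, at −1.39 (edgeR FDR = 0.0304) and −1.25 (edgeR FDR = 0.0326).

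Arc rose in both genotypes, with no overlap between ages. It stood at 3.55, 2.57 and 3.20 CPM in E12.5 WT embryos, and at 6.64, 8.23 and 7.17 CPM in E14.5 WT. In HARE5Hs/Hs it stood at 2.94, 3.07 and 3.59 CPM at E12.5 and at 7.65, 7.29 and 5.38 CPM at E14.5. All E14.5 embryos of both genotypes were above all E12.5 embryos. Arc rose by 1.24 in WT (SE 0.23, edgeR FDR = 0.00189) and by 1.08 in HARE5Hs/Hs (SE 0.23, edgeR FDR = 0.00268), and was called in each fit that left out 1 embryo of the groups compared. The summed neuron markers were also higher at E14.5, from 1364 to 1412 CPM in E12.5 WT to 2833 to 3683 CPM in E14.5 WT, all 8 of them above 0, and their part in the Arc level was not tested. Within E14.5 HARE5Hs/Hs, neuron markers summed to 3447, 4728 and 4934 CPM in replicates 1, 2 and 3, beside Arc at 7.65, 7.29 and 5.38 CPM. Npas4, also a gene of active neurons, stood at 1.18, 0.350 and 0.188 CPM in E12.5 WT embryos, at 0.597, 1.42 and 0.863 CPM in E14.5 WT, at 1.83, 0.220 and 0.399 CPM in E12.5 knock-in embryos, and at 1.01, 1.01 and 2.46 CPM in E14.5 knock-in embryos. Its groups overlapped, and it did not pass in WT (0.73, SE 0.85, edgeR FDR = 0.529) or HARE5Hs/Hs (0.85, SE 0.82, edgeR FDR = 0.421).

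The heat-shock pair was near the limit of detection in 11 of the 12 embryos. Hspa1a held 11, 7 and 0 counts in E12.5 WT, 5, 5 and 19 in E12.5 HARE5Hs/Hs, 0, 1 and 8 in E14.5 WT and 12, 6 and 0 in E14.5 HARE5Hs/Hs. Hspa1b held 12, 18 and 15 counts, then 13, 27 and 23, then 9, 0 and 22, and in E14.5 HARE5Hs/Hs 5, 17 and 888. A single embryo, E14.5 HARE5Hs/Hs replicate 3, thus held 888 of the 1049 Hspa1b counts, with no Hspa1a count. Hspa1b was called for age in HARE5Hs/Hs at 4.42 (SE 1.505, edgeR FDR = 0.0304) although the groups overlapped, and without that embryo it was −0.81 (edgeR FDR = 0.552). The sum of both copies gave 3.88 (edgeR FDR = 0.0329). The call was also lost without any 1 of the 3 E12.5 HARE5Hs/Hs embryos, at 4.19 to 4.57 (edgeR FDR = 0.0757 to 0.0783). In the authors' deposited table Hspa1b stands at 4.45 in HARE5Hs/Hs, with no adjusted p. In WT, Hspa1a changed by −0.84 (SE 1.36, edgeR FDR = 0.660) and Hspa1b by −0.41 (SE 1.68, edgeR FDR = 0.874), and neither passed.

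**Figure D2:**
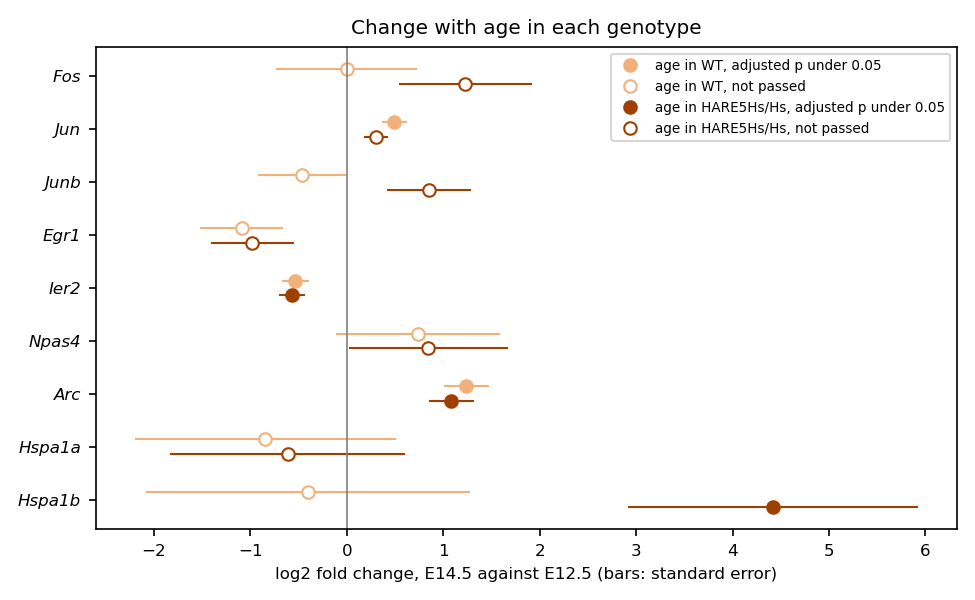
Log2 fold change from E12.5 to E14.5 (horizontal axis, bars are the standard error) of the 9 tested genes in WT (light) and HARE5Hs/Hs (dark), filled where the edgeR FDR is under 0.05. Arc and Ier2 are filled in both genotypes, Jun in WT at 0.49, and Hspa1b in HARE5Hs/Hs at 4.42 with the widest bar of the filled values.

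No gene of the group was called between genotypes at either age. At E12.5, edgeR called 0 of 9 and 0% of all tested genes, with 322 genes at an unadjusted p under 0.05, and DESeq2 called 0. At E14.5, edgeR called 0 of 9 and 0% of all, with 1708 genes at an unadjusted p under 0.05, while DESeq2 called 37 genes, none of them in the group. DESeq2 gave Hspa1b no adjusted p for age in HARE5Hs/Hs, so its absence from these DESeq2 calls is not read as a negative result. Over both ages edgeR called 0 genes (0%, with 1366 at an unadjusted p under 0.05, DESeq2 0), and for the genotype by age difference it called 0 genes (0%, with 731 at an unadjusted p under 0.05, DESeq2 1). Without E14.5 HARE5Hs/Hs replicate 1, edgeR called 19 genes at E14.5 and 2 for the genotype by age difference, again none in the group.

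At E14.5 the largest genotype differences of the group were in Hspa1b, Fos and Junb, and none passed. Junb was the 1 gene of 9 whose groups did not overlap, and all 3 HARE5Hs/Hs embryos were higher. Of all tested genes 18.4% did not overlap, 9.48% being higher and 8.93% lower. The Junb difference was 1.28 (SE 0.45, edgeR FDR = 0.342). Without replicate 3 it was 0.99 (edgeR FDR = 0.793). Fos differed by 1.67 (SE 0.71, edgeR FDR = 0.395), with WT replicate 3 at 0.597 CPM and the lowest HARE5Hs/Hs embryo at 0.593 CPM, and without replicate 3 by 1.13 (edgeR FDR = 0.796). Hspa1b differed by 5.29 (SE 1.61, edgeR FDR = 0.342) with that embryo and by 0.06 (edgeR FDR = 0.993) without it. Npas4 differed by 0.62 with it and by 0.07 without it, and Hspa1a by 0.95 (SE 1.36, edgeR FDR = 0.787). Jun (0.04, SE 0.12), Ier2 (−0.15, SE 0.14), Arc (−0.11, SE 0.23) and Egr1 (0.16, SE 0.44) had differences of about 1 standard error or less.

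At E12.5 Jun stood at 0.22 (SE 0.13, edgeR FDR = 1.00), and Ier2 stood at −0.12 (SE 0.14), Arc at 0.04 (SE 0.24), Junb at −0.04 (SE 0.44) and Egr1 at 0.05 (SE 0.42). Fos stood at 0.44 (SE 0.72), Npas4 at 0.50 (SE 0.85), Hspa1a at 0.72 (SE 1.22) and Hspa1b at 0.47 (SE 1.56). The genotypes overlapped in all 9 tested genes, while 7.15% of all tested genes did not overlap (3.34% higher, 3.81% lower). With errors of this size, even a doubling of Fos, Npas4 or either heat-shock gene would lie within 2 standard errors. Fosb held 2 counts in WT and 4 in HARE5Hs/Hs, a ratio of 1.98 (95% counting interval 0.284 to 21.9). The genotype by age difference was 1.31 for Junb (SE 0.63), 1.23 for Fos (SE 1.02) and 4.82 for Hspa1b (SE 2.21), each with edgeR FDR = 0.921.

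The spread between embryos of a group differed widely among these genes. It ran from an SD of log2 CPM of 0.16 for Ier2, 0.17 for Jun and 0.21 for Arc, over 0.38 for Junb, 0.58 for Egr1, 0.71 for Fos and 0.95 for Npas4, to 1.27 for Hspa1a and 2.22 for Hspa1b. The median within-group SD of log2 CPM was 0.58 over the 9 tested genes against 0.19 over all tested genes, and several of the 9 have few counts. The chi-square per degree of freedom within groups, which is 1 for counting noise alone, was 311 for Hspa1b, 15.9 for Jun and 10.3 for Egr1, against a median of 6.28 over all tested genes. It was 8.29 for Npas4, 5.99 for Hspa1a, 4.77 for Fosb, 4.10 for Ier2, 3.35 for Fos, 1.80 for Junb and 1.49 for Arc. At their total counts, 242 for Junb and 936 for Arc against 13552 for Jun, the spread of Junb and Arc thus lay little above counting noise. Against genes of like level, the edgeR dispersion was 13.8 times the trend for Hspa1b, 3.72 times for Hspa1a and 1.75 times for Npas4, near it for Egr1 (1.09), Jun (1.02) and Fos (0.933), and below it for Ier2 (0.497), Junb (0.407) and Arc (0.343).

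**Figure D3:**
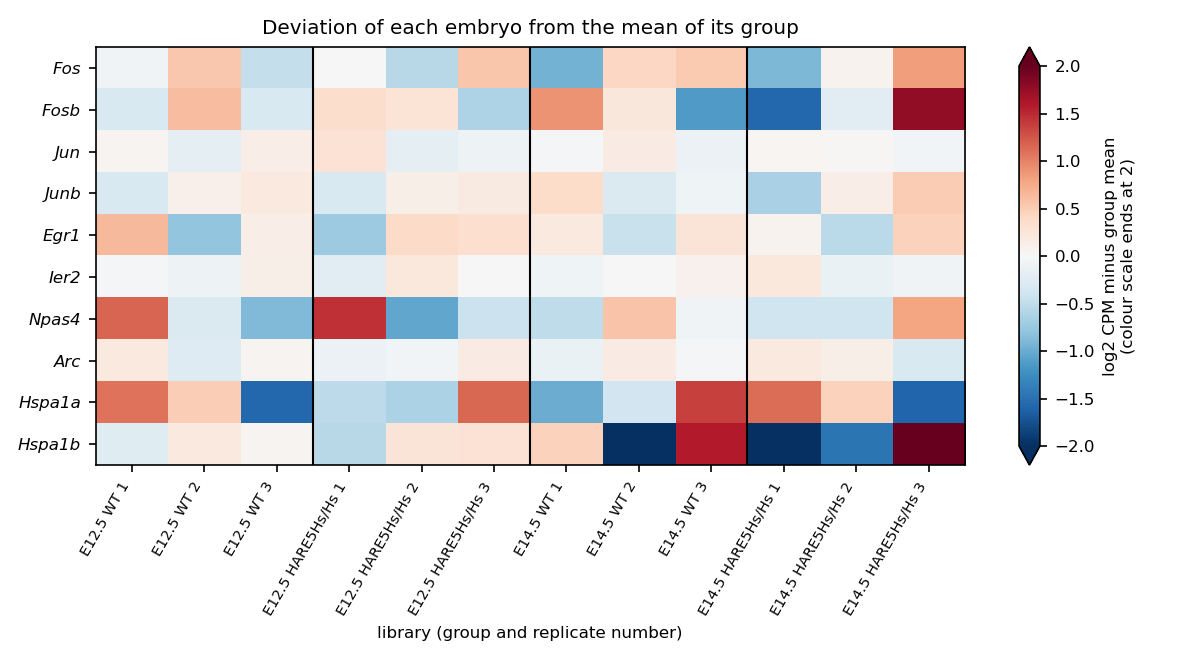
Deviation of log2 CPM of each gene (rows) in each library (columns, group and replicate number) from the mean of its group, red above and blue below, with black lines between groups. The strongest colours are in Hspa1b, Hspa1a, Fosb and Npas4, and no column is red for all genes: E14.5 HARE5Hs/Hs replicate 3 is above its group in Fos, Fosb, Junb, Egr1, Npas4 and Hspa1b and below it in Jun, Ier2, Arc and Hspa1a.

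No other gene of the group passed a test of joint variation with Fos from embryo to embryo. After group means were removed, log2 CPM of Fos over the 12 libraries had Pearson's r of 0.488 with Hspa1b (Spearman's rho 0.357), 0.413 with Npas4 (rho 0.448) and −0.413 with Ier2 (rho −0.301). It was 0.243 with Junb (rho 0.217), 0.157 with Hspa1a (rho 0.203), −0.252 with Arc (rho −0.238), −0.160 with Jun (rho −0.259) and −0.158 with Egr1 (rho 0.014). Exact permutation within groups (1296 rearrangements, 2-sided) gave adjusted p = 0.687 for r of all 8 relations, from unadjusted p of 0.197 to 0.687, and adjusted p = 0.683 or above for rho. Without the 2 libraries farthest from the median of Fos, E14.5 HARE5Hs/Hs replicate 3 and E14.5 WT replicate 1, r was 0.297 with Hspa1b, 0.160 with Npas4 and −0.751 with Ier2. Without E14.5 HARE5Hs/Hs replicate 3 alone, r was 0.0897 with Hspa1b and 0.600 with Hspa1a. No test was run on these reduced sets of libraries.

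The genes whose pattern over the 12 libraries was most like that of Fos, after group means were removed and among genes with a mean of at least 2 CPM, were not immediate early genes of the lists. That cut-off left out Junb, Npas4 and Fosb, with means of 1.34, 0.961 and 0.195 CPM, so these could not appear. It also left out low genes of the other lists, among them Egr2, Egr3, Atf3, Ier3 and Batf3. The genes most like Fos were Stk19 (r = 0.895), Crk (0.893), Zfp623 (0.889), Oser1 (0.865), Zbtb11 (0.864) and Cers5 (0.861). For the sum of Hspa1a and Hspa1b they were Mbd2 (r = 0.964), Sec62 (0.952), Tsc22d3 (0.941), Hspa2 (0.932), Dr1 (0.920) and Ubfd1 (0.919). All 6 of the latter were highest in E14.5 HARE5Hs/Hs replicate 3, and without it r for Hspa2 was 0.661 and for Mbd2 0.856. These were picked as the highest of 11978 and 11977 genes and are a description.

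One embryo, E14.5 HARE5Hs/Hs replicate 3, carried the highest level of the 12 in 4 of 9 tested genes and also in Fosb, beside 18.9% of all tested genes. Hspa1b is among the 4, and the embryo was singled out from these same values, so the count is a description. This embryo held 2.28 CPM of Fos, 2.92 CPM of Junb and 2.46 CPM of Npas4, against highest values elsewhere of 1.28, 2.23 and 1.83 CPM. These levels rest on 25, 32 and 27 counts. Hspa1b differed by far more, with 80.9 CPM against at most 1.53 CPM in the other 11 embryos, a ratio of 52.9. Of all tested genes, 56 (0.391%) were at least 2-fold and 6 (0.0419%) at least 5-fold above the highest other library. Hspa1b had the highest ratio of the tested genes. Gfap, an astrocyte gene given below and not among the tested genes, had a higher ratio, 65.0.

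The list of HSF1 and other stress-inducible chaperone genes, 21 of them tested, summed to 3454 CPM there, against 3497 and 3415 CPM in replicates 1 and 2, and 3 of 21 were at their highest of 12, beside 18.9% of all tested genes. Dnajb1 stood at 65.3 CPM against 59.9 and 59.8 CPM, Hsph1 at 229 CPM against 237 and 240 CPM, and Bag3, a co-chaperone, at 2.00 CPM against 4.03 and 4.05 CPM. Hspb1, a small heat-shock protein gene, had no count. The constitutive Hspa8 was at 3072 CPM against 2724 and 3066 CPM. Hspa2 and Cryab did stand high there, Hspa2, an HSP70 gene of testis and other tissues, at 49.8 CPM against at most 4.58 CPM elsewhere, and Cryab, a small heat-shock protein gene, at 11.02 CPM against at most 3.05 CPM. Dnajb1, Hsph1, Bag3, Hspb1, Hspa8, Hspa2 and Cryab, and the genes of the next 2 paragraphs, were singled out after their values were seen.

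Several activity genes were at their highest in the same embryo, while other listed genes were low there. That held for 6 of 11 tested activity-regulated effector genes and 4 of 15 other immediate early transcription factor genes, for 3 of 25 feedback genes and 1 of 8 other AP-1 genes, beside the same 18.9%. Egr3, a relative of Egr1, stood at 9.11 CPM against 0.474 and 2.09 CPM in replicates 1 and 2. Bdnf, a neuronal growth factor gene, stood at 4.83 CPM against 0.593 and 0.405 CPM, and Pcsk1, a prohormone convertase gene, at 6.83 CPM against 0.356 and 0.270 CPM. In the other direction, Nptx2 stood at 3.10 CPM against 5.52 and 3.64 CPM, and Klf2 at 0.0911 CPM against 1.25 and 2.56 CPM. Atf3 had no count. Of the 3 E14.5 HARE5Hs/Hs embryos, replicate 3 was highest in 7 of 11, 5 of 15, 4 of 25 and 3 of 8 genes, beside 34.1% of all tested genes.

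Some genes of mature brain cells also stood high in that embryo. Of 12 mature neuron genes, a list drawn up after the values were seen, 9 were at their highest of 12, beside 18.9% of all tested genes. None was at 0, and the list summed to 473 CPM against 67.5 to 165 CPM in the other 11. Snap25, a synaptic vesicle fusion gene also among the neuron markers above, stood at 199 CPM against at most 58.3 CPM. Vsnl1, a calcium sensor gene, stood at 36.9 CPM against at most 2.29 CPM, and Nefh, a neurofilament gene, at 14.7 CPM against at most 0.810 CPM. Of 11 myelin and oligodendrocyte genes, drawn up in the same way, 1 was at its highest, beside the same 18.9%, with Mbp at 108 CPM against at most 33.5 CPM. The other 10 were not, and 6 of them (Mog, Mobp, Cldn11, Mal, Opalin and Aspa) had no count, while the list summed to 129 CPM against 47.5 to 90.0 CPM. Mog had no count in the other 11 libraries either, and Opalin, Aspa, Mobp and Mal had none in 10, 8, 7 and 2 of them. Cldn11 stood at 2.43 CPM or more in the other 11. Of 8 astrocyte genes, 2 were at their highest, beside the same 18.9%, with Gfap at 37.9 CPM against at most 0.583 CPM. S100b had no count there and none in 8 of the other 11, and Gja1 stood at 44.8 CPM against at least 59.1 CPM. The astrocyte list summed to 591 CPM against 322 to 723 CPM in the other 11, and against 611 to 723 CPM in the other E14.5 libraries. The source of this RNA, and its part in the Hspa1b, Fos and Egr3 levels of this library, were not tested.

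**Figure D4:**
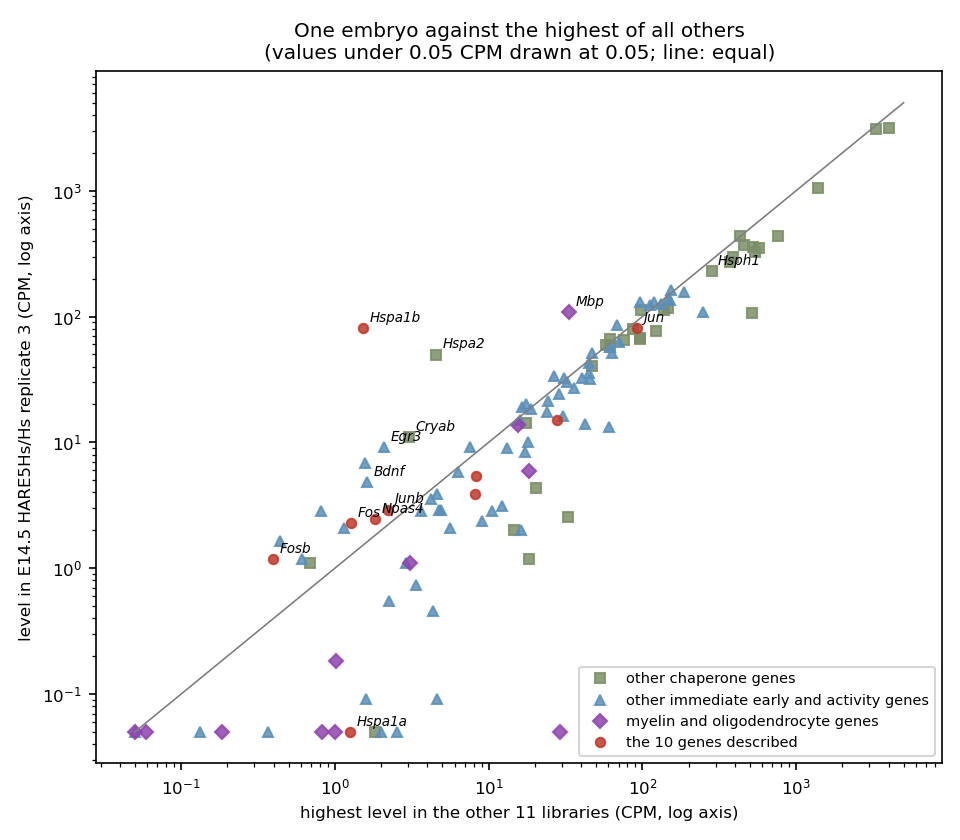
Level in E14.5 HARE5Hs/Hs replicate 3 (vertical, CPM, log axis) against the highest level in the other 11 libraries (horizontal, CPM, log axis) for the genes described, other chaperone genes, other immediate early and activity genes, and myelin and oligodendrocyte genes, with a line of equality. Hspa1b at 80.9 CPM and Hspa2 at 49.8 CPM lie far above the line, while Hsph1 at 229 CPM lies below it and Hspa1a is drawn at the lower edge.

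The wider immediate early family changed with age in both directions. In this and the following lists, paired values are the log2 fold changes in WT and then in HARE5Hs/Hs, and named genes passed the test unless a value says otherwise. Median changes of the 9 lists ran from −0.45 (glucocorticoid) to 0.14 (activity effectors) in WT and from −0.42 (hypoxia) to 1.16 (activity effectors) in HARE5Hs/Hs, beside −0.01 and −0.03 over all tested genes. Without E14.5 HARE5Hs/Hs replicate 3, called the library apart in these lists, the medians in HARE5Hs/Hs ran from −0.36 (other AP-1) to 0.38 (activity effectors). The hypoxia median was then −0.27, beside −0.01 over all genes then tested. The counts in each list stand beside the same shares of all tested genes as above, 20% higher and 15.2% lower in WT (35.2% called) and 23.7% higher and 22% lower in HARE5Hs/Hs (45.7% called). Without the library apart, 20% of all genes tested were higher and 15.6% lower in HARE5Hs/Hs. With lists of 6 to 25 genes, no list is said to differ from these shares. Of 8 other AP-1 and related genes, 2 rose and 0 fell in WT (background 35.2% called), and 2 rose and 2 fell in HARE5Hs/Hs (background 45.7%), or 2 and 1 without the library apart. Fosl2, a Fos family member, rose by 1.89 and 1.61 and the bZIP gene Mafk by 0.52 and 0.96 (edgeR FDR of 0.0322 or less). Atf3, a stress-induced bZIP gene, changed by −2.31 (edgeR FDR = 0.0199) and Batf3 by −2.22 (edgeR FDR = 0.0471) in HARE5Hs/Hs. Batf3 lost its call without E14.5 HARE5Hs/Hs replicate 3 (−1.96, edgeR FDR = 0.128).

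Of 15 other immediate early transcription factor genes, 3 rose and 2 fell in WT, beside 35.2% of all genes called, and 5 rose and 2 fell in HARE5Hs/Hs, beside 45.7%. Without the library apart 4 rose and 2 fell there. Nr4a3, an orphan nuclear receptor gene, rose by 3.72 in WT (SE 0.23, edgeR FDR = 5.56e-06) and 4.04 in HARE5Hs/Hs (SE 0.23, edgeR FDR = 2.62e-06). Its mean level went from 2.60 to 34.4 CPM in WT and from 2.43 to 40.1 CPM in HARE5Hs/Hs. Ier5, of the same family as Ier2, rose by 0.89 and 0.86 while Ier2 fell. Nfil3, a bZIP repressor gene, rose by 1.09 and 1.35, and Klf10, a zinc finger gene, changed by −0.62 and −0.65. Egr3 was called in HARE5Hs/Hs (2.504, edgeR FDR = 0.0470) but not without E14.5 HARE5Hs/Hs replicate 3 (0.93, edgeR FDR = 0.426).

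Of 25 feedback and signalling genes, 6 rose and 8 fell in WT, beside 35.2% of all genes called, and 6 rose and 10 fell in HARE5Hs/Hs, beside 45.7%. Without the library apart 5 rose and 8 fell there. Dusp6, a phosphatase that switches off ERK, changed by −1.56 and −1.65 and Zfp36l1, a factor of mRNA decay, by −0.80 and −0.92. Btg1, an antiproliferative gene, rose by 0.80 and 0.64 and Sik1, a kinase gene induced through CREB, by 0.55 and 0.64. Of 11 activity-regulated effector genes, 5 rose and 0 fell in WT, beside 20% of all genes higher, and 5 rose and 1 fell in HARE5Hs/Hs, beside 23.7% higher. Without the library apart 5 rose and 0 fell there. Nptx1, a synaptic pentraxin gene, rose by 1.82 and 1.71, Cpeb4, a regulator of translation, by 1.35 and 1.54, Nrn1, a neurite growth gene, by 1.11 and 1.16, and the postsynaptic scaffold gene Homer1 by 0.47 and 0.45.

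Of 21 upstream factors of these genes, 6 rose and 3 fell in WT, beside 35.2% of all genes called, and 11 rose and 3 fell in HARE5Hs/Hs, beside 45.7%. Without the library apart 8 rose and 2 fell there. Mef2c, a transcription factor gene of neurons, rose by 1.76 and 2.34, and Rps6ka5, which encodes a kinase that acts on CREB, by 1.64 and 1.71. Elk3, a partner of SRF, changed by −0.79 and −0.97. Mapk3, which encodes the kinase ERK1, rose by 0.47 and 0.49, and Elk1, also an SRF partner, by 0.67 and 0.81.

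Of 21 HSF1 and stress-inducible chaperone genes, 2 rose and 5 fell in WT, beside 20% higher and 15.2% lower of all genes. In HARE5Hs/Hs 3 rose and 7 fell, beside 23.7% higher and 22% lower, and without the library apart 1 rose and 7 fell. Bag3 changed by −1.59 and −1.52 and Serpinh1, a collagen chaperone, by −1.11 and −1.44. Meninges markers changed in the same direction as Serpinh1, from 1173 to 2216 CPM over the 6 E12.5 embryos to 11.1 to 846 CPM at E14.5, and their part was not tested. Fkbp4, a partner of HSP90, changed by −0.32 and −0.42, Hspd1, the mitochondrial HSP60 gene, by −0.34 and −0.55, and Hsf2, a relative of HSF1, rose by 0.41 and 0.39.

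Of 12 constitutive HSP70 and HSP90 family genes, 2 rose and 5 fell in WT, beside 20% higher and 15.2% lower of all genes. In HARE5Hs/Hs 3 rose and 7 fell, beside 23.7% higher and 22% lower, and without the library apart 1 rose and 5 fell. Hspa12a, a brain HSP70 relative, rose by 1.60 and 1.89, and Hspa12b, known from endothelial cells, changed by −1.86 and −2.42. Endothelial and pericyte markers summed to 364 to 506 CPM in the E12.5 embryos and to 132 to 302 CPM at E14.5, and their part was not tested. The HSP90 gene Hsp90ab1 fell (−0.25 and −0.24), as did Hspa14 (−0.26 and −0.35). Hsp90b1 (−0.37 and −0.62) and Hspa5 (−0.34 and −0.54), chaperones of the endoplasmic reticulum, also fell. Without E14.5 HARE5Hs/Hs replicate 3 the HARE5Hs/Hs call of Hsp90ab1 was lost, at −0.23 (edgeR FDR = 0.0635). Hspa2 was called in HARE5Hs/Hs (2.45, edgeR FDR = 0.0442) but stood at −0.27 (edgeR FDR = 0.648) without that embryo.

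Hypoxia and glucocorticoid genes, of 2 other stress responses, are given for comparison. Of 12 hypoxia-induced genes, 2 rose and 3 fell in WT, beside 35.2% of all genes called, and 2 rose and 4 fell in HARE5Hs/Hs, beside 45.7%. Without the library apart 2 rose and 3 fell there. Ndrg1, which is also a myelin and neuronal gene, rose by 3.63 and 4.10, Ddit4, an mTOR inhibitor gene, by 0.53 and 0.68, while the glucose transporter gene Slc2a1 changed by −0.95 and −1.02 and the kinase gene Pdk1 by −0.76 and −0.72. Of 6 glucocorticoid-induced genes, 0 rose and 2 fell in WT, beside 35.2% of all genes called, and 0 rose and 3 fell in HARE5Hs/Hs, beside 45.7%, with Sgk1 at −1.40 and −1.56 and Fkbp5 at −0.39 and −0.41. Cdkn1a changed by −1.23 in HARE5Hs/Hs (edgeR FDR = 0.0163), and without the library apart by −0.99 (edgeR FDR = 0.0639), which left 0 rising and 2 falling. In these 9 lists, as over all genes, edgeR called 0 genes between genotypes at either age.

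**Figure D5:**
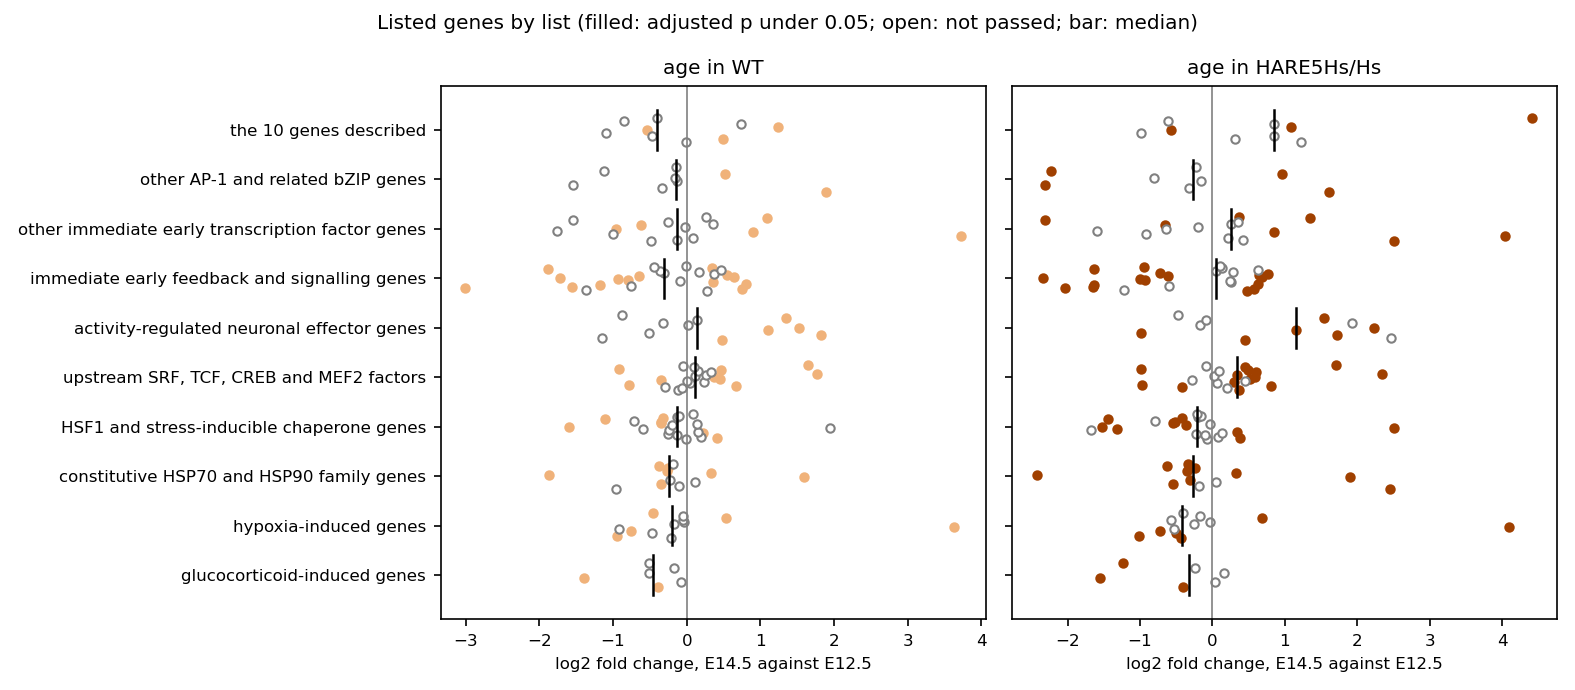
Log2 fold change from E12.5 to E14.5 (horizontal axis) of the tested genes of each list (rows), in WT (left) and HARE5Hs/Hs (right), filled where the edgeR FDR is under 0.05, with a bar at the median of the list. Members of most lists lie on both sides of 0, the 10 genes described among them, and Nr4a3 and Ndrg1 lie farthest right in WT, at 3.72 and 3.63.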

How the data were processed

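Cortical mRNA of 12 single embryos was sequenced with the TruSeq Stranded mRNA kit. STAR, mm39 and DESeq2 are named in the submitters' processing notes. The deposited tables' names also carry the word Salmon, a quantification tool. No version and no strand setting is given in these sources. Per the file headers, the 2 deposited tables give the authors' estimated count and FPKM per library. For age in 1 genotype each, they also give the authors' log2 fold change, standard error (SE) and p-value. The 2 tables hold equal values for the 12 libraries, to within 1e-09 in FPKM. In each table, 12 columns match no sample and were left aside.

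The deposited estimated counts are whole numbers. R 4.3.3 was used with edgeR 4.0.16, limma 3.58.1 and DESeq2 1.42.0. The filter was filterByExpr with a minimum count of 10, scaling was by TMM, and 1 quasi-likelihood model with 4 group means took in the 12 libraries. For each of 6 contrasts, 2-sided p-values were adjusted by the Benjamini-Hochberg method, with 0.05 as the threshold. An approximate SE was computed as the absolute log2 fold change over the square root of F. A prior count of 2 entered log2 CPM. The model was tested on simulated data, drawn at the trend of the dispersion and with no embryo set apart. That test does not bear on the Hspa1b call. Totals of 11593202 to 17670103 counts per library, with no molecular identifiers, leave a gene near 1 CPM with few counts per embryo.

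The genes and lists were chosen with earlier results of these data known. From every other list, the text names up to 4 genes per age contrast, those with the smallest p among the genes called. The 6 genes most like Fos, and the 6 most like the heat-shock pair, are named too. Genes outside these rules are marked as chosen after their values were seen. A result for 1 further gene is not reported here. Other settings tried were DESeq2's own test, its size factors in edgeR, dropping the filter, a stricter one, fitting just the libraries compared, a replicate block, a robust fit, summing the heat-shock pair, and omitting each embryo.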

Additional observations from a re-analysis of the deposited data

How the results depend on the processing

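With all embryos 3 of the genes were called for age in each genotype, and with each embryo left out in turn 2 to 4 were, Egr1 being gained in WT, and Jun and Egr1 in HARE5Hs/Hs. Replicate numbers did not pair the samples: same-numbered libraries correlated at −0.443 to 0.336, and 4 of 12 correlated best with their own number. With the replicate number as a block, 3 genes were called in WT, 2 in HARE5Hs/Hs and 0 between genotypes, and the Hspa1b change in HARE5Hs/Hs was 2.57 (edgeR FDR = 0.188). That Hspa1b call was also lost with a robust fit (edgeR FDR = 0.0736) and with only the libraries compared (edgeR FDR = 0.0770), and DESeq2 gave it no adjusted p; the cause was not tested. Without a filter Fos in WT stood at 0.0126 in place of −0.00. Leaving out embryos turned the direction of values that did not pass, and of Hspa1b. For age these ran from −0.31 to 0.44 for Fos and −1.56 to 0.15 for Hspa1b in WT, and from −1.44 to 0.43 for Hspa1a and −0.81 to 4.99 for Hspa1b in HARE5Hs/Hs. Between genotypes at E12.5 they ran from −0.19 to 0.11 for Junb, −0.26 to 0.42 for Egr1, −0.0757 to 0.14 for Arc, −0.89 to 1.55 for Npas4 and −0.32 to 1.504 for Hspa1a. At E14.5 they ran from −0.0250 to 0.13 for Jun, −0.0904 to 0.40 for Egr1 and −0.19 to 0.0257 for Arc. The genotype by age difference of Hspa1b ran from −0.41 to 5.99. Over all genes, the 5041 calls in WT became 3245 without E14.5 WT replicate 1. For Fos, Npas4 and the heat-shock pair the standard errors were larger than the changes seen in Jun or Ier2, and the shares of depth and of spread between embryos in these errors were not tested.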
